A study of Mus musculus with 3 samples.

Results

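The genes described here are 48 genes of DNA replication and replication licensing, chosen by name and read from LSK libraries of wild-type and *Calr*-mutant mice. They cover the origin recognition complex, the licensing factors, the MCM helicase, its partners CDC45 and GINS, the DNA polymerases, the sliding clamp and its loader, RPA, Okazaki fragment enzymes, deoxynucleotide supply, and the S phase genes *Ung* and *Slbp*. All 48 symbols were found once among the 36172 genes of the deposited table, and all 48 had reads in at least 1 library. LSK cells are lineage-negative, Sca1-positive, c-Kit-positive bone marrow cells, the sorted fraction that holds hematopoietic stem cells and early progenitors. RNA sequencing was done on 3 libraries on the C57BL/6 background, 1 each from *Calr* WT/WT mice (WT), *Calr* ins2/WT mice (ins2) and *Calr* del10/WT mice (del10). The mutant mice are heterozygous knock-ins made with CRISPR-Cas9, in which a frameshift in the last *Calr* exon changes the C terminus of calreticulin in every cell that uses the allele. Male mice aged 3 months were used, 4 of them for each library, which was made from 5 ng of total RNA. Because there was 1 library per genotype, the differences below could not be checked on replicates and carry no p-value.

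Before S phase, ORC marks origins and, with CDC6 and CDT1, loads the inactive MCM2-7 ring on DNA, a step called licensing, while geminin holds CDT1 back once replication has begun. At the start of S phase CDC45 and GINS join the ring to make the active helicase, and polymerases alpha, delta and epsilon, the PCNA clamp and RPA follow at the fork. Many of these genes are targets of E2F factors, which switch on transcription at the passage from G1 to S phase, and long-term stem cells are known as largely quiescent while their progeny cycle. In a bulk library, fewer expressing cells cannot be told apart from less RNA per cell.

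The gene reads summed to between 9823095 and 11111698 per library. A normalized count is the deposited estimated read count times the authors' scaling factor of that library, and a ratio is a ratio of normalized counts, with 1 added before log2 values were taken. Members were compared within a main set of 7073 genes with a mean normalized count of 215.3 or more, the median over the 14145 genes that had reads. Of the 48 members, 33 were in this set and 15 were under it. The commonest low read count of a gene was 61 in WT against 21 in ins2 and 16 in del10, and served as an estimate of the reads that 1 starting fragment gave. The intervals below are exact binomial 95% intervals of a ratio on fragments estimated this way, so they are wide for genes low in WT, and they cover counting error only. Genes at 200 to 500 normalized counts in both other libraries were at 0 for 66 of 1727 in WT (3.82%), for 0 of 1237 in ins2 and for 0 of 1202 in del10, which allow shares of up to 0.298% and 0.306% (exact 95% intervals). Markers of the sort and of other cells also differed between the libraries. The summed normalized count of 14 stem and progenitor markers was 2879 in WT against 14080 in ins2 and 17136 in del10, with 5 of the 14 at 0 in WT (*Cd34*, *Hoxa9*, *Mecom* and *Procr* among them), *Hoxa9* and *Procr* at 0 in ins2, and *Hoxa9* at 0 in del10. *Kit*, which encodes the c-Kit receptor of the sort, was at 286 in WT against 3082 in ins2 and 4177 in del10, and *Ly6a*, which encodes Sca1, was at 145, 120 and 51.9. The sum of 14 B-lineage markers was 61668, 19750 and 18501 in the same order, and none of the 14 was at 0 in any library. The sum of 11 basophil, mast cell and eosinophil markers was 1695, 20526 and 29568, with 4 of the 11 at 0 in WT and *Ms4a2* at 0 in the knock-in libraries too. The sum of 12 mitotic genes was 6756, 9423 and 11973, with *Aurka* at 0 in WT. The sum of 12 T and NK cell markers was 8413, 14514 and 5945, with *Trac* at 0 in every library and *Cd3g* at 0 in WT. *Il7r* alone gave 3679, 1950 and 1538 of these sums. Of the 8 T and NK cell markers in the main set, 6 were over 2-fold lower in del10 than in ins2 (4.03% of all genes in the set). Their median log2 ratio was -1.36. The sum of 9 erythroid markers was 12468, 7155 and 9015, with none at 0. Of the 6 in the main set, 1 was over 2-fold higher in del10 than in WT (15.3% of the set), *Klf1* at 113, 143 and 464. Another 1 was over 2-fold lower (10.2%), *Hbb-b1* at 2049, 579 and 773. The sum of 7 megakaryocyte markers was 1761, 3226 and 4834. *Gp9* was at 0 in WT and ins2, *Gp1ba* in WT and del10, and *Gp1bb* in ins2. The 2 in the main set differed in opposite directions, *Itga2b* at 987, 2775 and 4286 and *Vwf* at 456, 318 and 326. The megakaryocyte sum thus followed *Itga2b*. The sum of 12 neutrophil and monocyte markers was 1850, 2892 and 4460, with *Camp*, *Ltf*, *Ngp* and *S100a8* at 0 in every library. Of the 4 in the main set, 3 were over 2-fold higher in del10 than in WT (15.3%), *Mpo* among them at 1034, 1581 and 2972. The other 1, *Elane*, was over 2-fold lower (10.2%), at 418, 104 and 129. The part of these differences in the results below was not tested.

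The promoter windows of 5 helicase genes are shown because all 6 helicase genes were highest in del10, and those of *Cdc6*, *Pold1* and *Slbp* because their intervals excluded no difference in most comparisons, *Cdc6* being at 0 in WT, *Pold1* highest in WT and *Slbp* highest in del10. Each window runs from 250 bases before to 50 bases after the RefSeq start of the gene on GRCm38.p6, which need not be the start in the deposited table, and no window was used for *Mcm4*, *Gmnn*, *Gins1*, *Gins2*, *Gins4*, *Prim2*, *Pole* and *Rfc2*. Capitals mark the E2F words TTTCCCGC, TTTCGCGC, TTTGCCGC and TTTGGCGC and the word CCAAT, on either strand, so that a word on the other strand appears as its reverse complement.
Mcm2 (chr6:88898731-88899030, minus strand): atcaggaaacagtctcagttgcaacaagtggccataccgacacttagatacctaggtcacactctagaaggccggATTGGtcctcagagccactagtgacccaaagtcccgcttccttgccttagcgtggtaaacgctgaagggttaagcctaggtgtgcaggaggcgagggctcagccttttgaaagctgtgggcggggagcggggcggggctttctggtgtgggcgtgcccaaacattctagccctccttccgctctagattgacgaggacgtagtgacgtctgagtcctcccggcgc
Mcm3 (chr1:20820263-20820562, minus strand): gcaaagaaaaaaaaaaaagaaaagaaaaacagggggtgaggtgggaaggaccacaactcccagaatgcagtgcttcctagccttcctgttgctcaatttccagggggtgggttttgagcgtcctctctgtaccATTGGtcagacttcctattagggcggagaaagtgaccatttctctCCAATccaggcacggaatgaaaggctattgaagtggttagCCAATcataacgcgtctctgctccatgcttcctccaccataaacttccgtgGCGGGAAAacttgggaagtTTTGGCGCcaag
Mcm5 (chr8:75109259-75109558, plus strand): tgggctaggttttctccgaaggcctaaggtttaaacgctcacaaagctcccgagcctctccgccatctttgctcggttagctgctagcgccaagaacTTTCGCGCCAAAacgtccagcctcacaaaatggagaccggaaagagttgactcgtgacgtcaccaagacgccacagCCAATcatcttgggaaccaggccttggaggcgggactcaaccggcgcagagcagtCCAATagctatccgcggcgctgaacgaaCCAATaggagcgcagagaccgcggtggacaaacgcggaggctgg
Mcm6 (chr1:128359656-128359955, minus strand): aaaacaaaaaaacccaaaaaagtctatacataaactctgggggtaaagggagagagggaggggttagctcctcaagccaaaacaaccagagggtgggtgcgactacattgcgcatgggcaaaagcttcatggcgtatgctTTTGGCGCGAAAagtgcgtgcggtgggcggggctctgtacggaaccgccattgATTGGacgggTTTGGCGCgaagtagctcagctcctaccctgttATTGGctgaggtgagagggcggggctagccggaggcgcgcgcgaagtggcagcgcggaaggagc
Mcm7 (chr5:138171834-138172133, minus strand): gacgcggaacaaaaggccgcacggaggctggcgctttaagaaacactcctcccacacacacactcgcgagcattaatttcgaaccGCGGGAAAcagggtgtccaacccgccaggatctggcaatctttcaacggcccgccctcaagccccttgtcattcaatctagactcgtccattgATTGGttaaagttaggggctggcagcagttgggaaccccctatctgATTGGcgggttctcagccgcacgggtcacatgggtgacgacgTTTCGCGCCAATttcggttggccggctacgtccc
Cdc6 (chr11:98907901-98908200, plus strand): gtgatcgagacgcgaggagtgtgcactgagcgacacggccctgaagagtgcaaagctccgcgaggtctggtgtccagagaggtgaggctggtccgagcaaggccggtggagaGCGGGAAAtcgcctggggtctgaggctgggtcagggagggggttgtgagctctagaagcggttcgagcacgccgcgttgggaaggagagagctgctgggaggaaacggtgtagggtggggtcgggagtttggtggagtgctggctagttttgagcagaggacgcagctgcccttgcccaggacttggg
Pold1 (chr7:44548766-44549065, minus strand): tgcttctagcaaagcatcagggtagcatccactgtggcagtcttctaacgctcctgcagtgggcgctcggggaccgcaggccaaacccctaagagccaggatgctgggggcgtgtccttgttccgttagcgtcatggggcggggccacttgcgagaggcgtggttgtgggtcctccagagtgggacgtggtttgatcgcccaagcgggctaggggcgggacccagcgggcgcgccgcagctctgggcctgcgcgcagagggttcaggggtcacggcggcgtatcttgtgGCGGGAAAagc
Slbp (chr5:33652525-33652824, minus strand): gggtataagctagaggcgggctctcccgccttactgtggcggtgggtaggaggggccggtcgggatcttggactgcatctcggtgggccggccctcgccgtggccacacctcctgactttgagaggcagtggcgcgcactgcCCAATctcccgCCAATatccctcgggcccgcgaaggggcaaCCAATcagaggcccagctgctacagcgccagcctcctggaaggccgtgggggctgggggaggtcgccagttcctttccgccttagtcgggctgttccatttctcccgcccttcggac

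*Mcm3*, *Mcm5* and *Mcm7* held 2 E2F words each and *Mcm6* held 3, while *Mcm2* and *Slbp* held none. *Cdc6* held a single one, at -138. In *Mcm5* the words at -153 and -149 lie on opposite strands and share 4 bases, and *Mcm6* had such a pair at -110 and -106. In *Mcm3* both words lay after the RefSeq start, at 20 and 39, as does the single word of *Pold1* at 40. The windows of *Mcm3* and *Slbp* lay wholly before the start of the gene in the deposited table, and that of *Cdc6* wholly after it. Positions in these 3 windows therefore hold for the RefSeq start only. In *Mcm7* the E2F word at 17 shares its last base with the CCAAT at 24. *Slbp* held 3 CCAAT words, at -108, -97 and -67. Windows were found for 40 of the 48 members. An E2F word was in 15 of these 40 (37.5%), against 626 of all 27025 RefSeq windows (2.32%). The word CCAAT was in 24 of 40 (60.0%), against 37.9% of all windows. The CHR words TTTGAA and TTCGAA, named after the cell cycle homology region of late cell cycle genes, were in 6 of 40 (15.0%), against 19.4% of all windows. Of the 33 members in the main set, 10 had an E2F word and 18 had a window without one. The median log2 ratio of del10 to WT was 0.79 over the former and 0.49 over the latter, and that of ins2 to WT was 0.24 and 0.20. That of del10 to ins2 was 0.50 and 0.15. *Cdc6*, at 0 in WT, is among the former. Ranges overlapped in all 3 comparisons. They ran from -0.74 in *Pold1* upwards with a word and from -0.67 to 1.39 without one in del10 against WT. In del10 against ins2 they were -0.52 to 0.72 and -0.60 to 1.12. A matching word is a description of the window, not a binding site.

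Together the 48 members had a summed normalized count of 29079 in WT against 30584 in ins2 and 37179 in del10. These sums were 0.269%, 0.283% and 0.329% of all normalized counts, so that ins2 was 1.05 times and del10 1.28 times the WT sum. Per kilobase of exons *Pcna* was the highest member in every library, at 1573 normalized counts per kilobase in WT, 1394 in ins2 and 1915 in del10. After *Pcna*, the next highest were *Mcm7* in WT (573) and del10 (803) and *Mcm6* in ins2 (600). *Pold1* and *Tyms* came next in WT (556 and 520), and the places after *Pcna* in ins2 and del10 went to helicase genes. Of the 33 members in the main set, del10 was the highest library for 17 (background 31.1% of the set), ins2 for 10 (30.4%) and WT for 6 (38.5%). Both knock-in libraries were above WT for 19 of the 33 (42.8% of all genes in the set) and both were below for 6 (38.5%). For the other 8 the knock-in libraries lay on opposite sides of WT (18.8%).

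**Figure D1:**
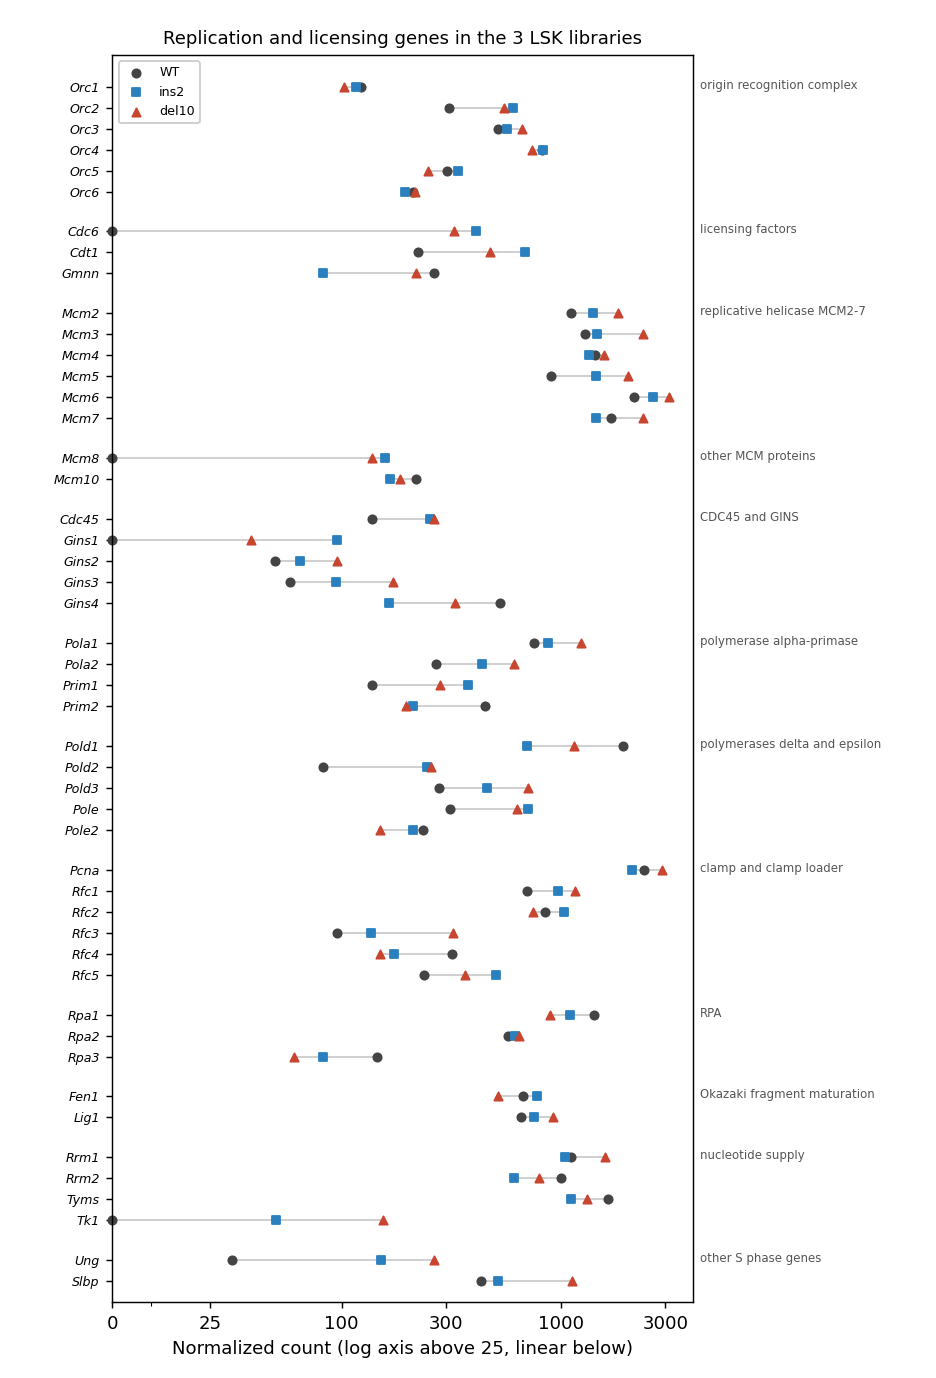
Normalized counts (horizontal axis, log above 25) of the 48 members in the WT, ins2 and del10 libraries, grouped by role. Each point is 1 library, and grey lines join the lowest and highest. The helicase genes sit at 905 to 3110 in every library with del10 furthest right, and *Cdc6*, *Mcm8*, *Gins1* and *Tk1* lie at 0 in WT.

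In del10 against WT, 8 of the 33 members in the main set were over 2-fold higher (background 15.3%) and 1 was over 2-fold lower (10.2%). The 8 were *Cdc6*, *Cdt1*, *Mcm5*, *Pola2*, *Prim1*, *Pold3*, *Pole* and *Slbp*, and the lower one was *Prim2*. Of the 33, 23 were higher by any amount (52.1% of the set), and the median log2 ratio was 0.51, against 0.04 over the whole set. In ins2 against WT, 5 were over 2-fold higher (15.7%), namely *Cdc6*, *Cdt1*, *Prim1*, *Pole* and *Rfc5*, and 3 were over 2-fold lower (10.7%), namely *Gins4*, *Prim2* and *Pold1*. Again 23 were higher by any amount (52.2%), with a median log2 ratio of 0.20 against 0.04. Both comparisons use the same WT library. *Cdc6*, *Prim1* and *Cdc45* were under the limit of 215.3 in WT, *Prim2* in both knock-in libraries and *Gins4* in ins2. These genes entered the set through the libraries in which they were high, and the counts and medians that hold them are descriptions. In del10 against ins2, *Slbp* was the 1 member over 2-fold higher (3.59%) and 0 of the 33 were over 2-fold lower (4.03%). Here 21 were higher by any amount (50.7%), and the median was 0.24 against 0.01. The members nearest to the threshold in del10 against WT were *Pole* at a ratio of 2.01, just past it, and *Cdc45* at 1.91, just under it. In ins2 against WT the nearest were *Prim2* past it, 2.12-fold lower, and *Orc2* under it at 1.95, and in del10 against ins2 *Gins4* was under it at 1.99.

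In both comparisons with WT, ratios past 2-fold were more frequent among members with low counts. In del10 against WT, 6 of the 11 members with means of 215.3 to 500 passed 2-fold in either direction, as did 36.9% of all genes at these levels. At 500 to 1000 it was 2 of 11 (21.9% of genes), and at 1000 to 4000 it was 1 of 11 (15.2%). In ins2 against WT the corresponding counts were 6, 1 and 1, beside 37.9%, 22.3% and 17.3% of genes. In del10 against ins2 they were 0, 1 and 0, beside 14.8%, 5.30% and 1.38%. Counting error on fragments left fewer members apart from no difference. In del10 against WT the intervals of *Cdc6*, *Mcm3*, *Mcm5* and *Slbp* lay above 1 (4 of 33, background 10.9%), and that of *Pold1* lay below 1 (1 of 33, 10.1%). In ins2 against WT those of *Cdc6* and *Cdt1* lay above (10.5%), and those of *Gins4* and *Pold1* below (10.3%). Because *Cdc6* and *Gins4* entered the set through the libraries in which they were high, the counts that hold them are descriptions here too. In del10 against ins2, where both libraries held more fragments, 7 of 33 lay above 1 (21.2%, background 8.50%) and 0 below (7.76%). The 7 were *Mcm3*, *Mcm5*, *Mcm7*, *Pold1*, *Pcna*, *Rrm1* and *Slbp*.

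**Figure D2:**
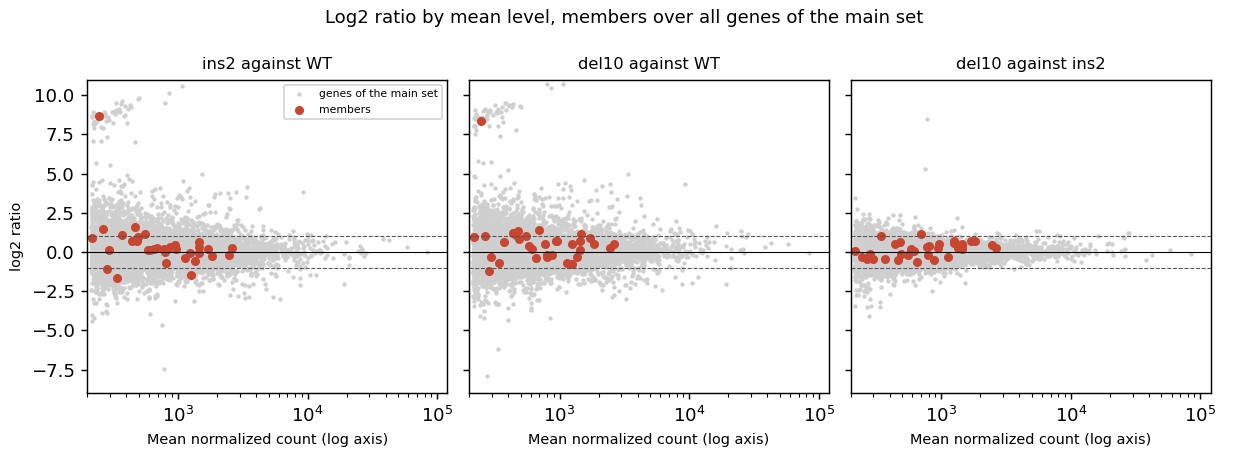
Log2 ratio (vertical axis) against mean normalized count (horizontal, log axis) for the members (red) over the genes of the main set (grey), in the 3 comparisons, with *Malat1* and *Rn45s* beyond the right edge. Dashed lines mark 2-fold. The grey cloud is widest at low counts in the panels with WT, the isolated red point at the top left of those panels is *Cdc6* at 0 in WT, and the del10 against ins2 cloud is narrower, with *Slbp* the red point past the upper line.

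The 6 ORC genes, whose products bind origins, stayed within 2-fold in all 3 comparisons. *Orc2* was at 310 in WT against 605 in ins2 and 550 in del10, the largest differences of the group, with a ratio of 1.95 (interval 0.726 to 6.82) for ins2 and 1.77 (0.67 to 6.15) for del10. *Orc3* was at 516, 569 and 664, and *Orc4* at 821, 834 and 736. *Orc5* was at 303, 339 and 247. *Orc1*, at 123, 116 and 102, and *Orc6*, at 211, 195 and 216, were under the main set. For each of the 6, the intervals of all 3 comparisons included no difference. Per kilobase of exons *Orc3* was the highest and *Orc1* the lowest subunit in every library, *Orc1* at 40.9 normalized counts per kilobase in WT against 224 for *Orc3*. *Orc1* is known to be cell cycle regulated. Its ratios to WT were 0.941 in ins2 and 0.825 in del10, on 1.84 fragments in WT. That number of fragments is too low to tell a rise of *Orc1* in the knock-in libraries from a fall.

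The loading factors were higher in both knock-in libraries than in WT. *Cdc6*, the ATPase that loads MCM rings with ORC, was at 0 in WT against 412 in ins2 and 326 in del10. On fragments, of which WT held 0 and each knock-in library 20.0, the lower limits of the interval of its ratio to WT were 1.52 in ins2 and 1.20 in del10. *Cdt1*, the partner of *Cdc6* in licensing, was at 223 in WT against 688 in ins2 and 478 in del10. Its ratio to WT was 3.08 in ins2 (1.01 to 14.1) and 2.14 in del10 (0.697 to 9.87), so the interval excluded no difference in ins2 and included it in del10. *Gmnn*, which encodes geminin, the inhibitor of CDT1, went another way, at 265 in WT against 82.0 in ins2 and 218 in del10. It was 3.23-fold lower in ins2 than in WT and 2.66-fold higher in del10 than in ins2, with fragment intervals of 0.057 to 1.68 and 0.823 to 11.2 for the ratios. *Gmnn* lay under the main set, with 3.95 fragments in WT and 3.97 in ins2. Per kilobase of exons *Gmnn* exceeded *Cdt1* in WT (223 against 102 normalized counts per kilobase), on 3.95 and 3.33 fragments. *Cdt1* exceeded *Gmnn* in ins2 (314 against 68.9) and in del10 (218 against 183). No interval was computed between genes of a library, so this order is a description.

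The 6 subunits of the MCM2-7 ring were all highest in del10, under each of the 5 scalings used. *Mcm2* was at 1113 in WT against 1411 in ins2 and 1825 in del10. *Mcm3* was at 1294, 1463 and 2363, and *Mcm4* at 1429, 1348 and 1569. The order WT, ins2, del10 held for *Mcm2* and *Mcm3*, while *Mcm4* was nearly level. *Mcm5* was at 905, 1442 and 2020, and *Mcm6* at 2160, 2626 and 3110. *Mcm7* was at 1698, 1444 and 2378, so ins2 was its lowest library. The ratio of del10 to WT was largest in *Mcm5*, at 2.23 (1.27 to 4.25), followed by *Mcm3* at 1.83 (1.13 to 3.11). *Mcm2* had 1.64 (0.975 to 2.94), *Mcm6* 1.44 (0.987 to 2.16), *Mcm7* 1.40 (0.914 to 2.23) and *Mcm4* 1.10 (0.682 to 1.85), and these 4 intervals included no difference. All 6 were thus above WT in del10, and *Mcm5* was the 1 of them past 2-fold. In ins2 against WT the 6 ratios ran from 0.851 in *Mcm7* to 1.59 in *Mcm5*, and each interval included no difference. Between the knock-in libraries, *Mcm7* was 1.65-fold (1.23 to 2.22), *Mcm3* 1.62-fold (1.21 to 2.18) and *Mcm5* 1.40-fold (1.04 to 1.91) higher in del10, and the intervals of *Mcm2*, *Mcm4* and *Mcm6* included no difference. The summed level of the 6 genes was 8599 in WT against 9734 in ins2 and 13265 in del10, or 1.13 and 1.54 times WT. The products form a ring with 1 copy of each, and per kilobase the highest subunit exceeded the lowest 2.19-fold in WT (*Mcm7* over *Mcm5*), 1.60-fold in ins2 and 1.84-fold in del10.

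*Mcm8* and *Mcm10* carry the MCM name without being part of the ring. *Mcm8*, a helicase of recombination repair, was at 0 in WT against 157 in ins2 and 138 in del10. On fragments the lower limits of its ratio to WT were 0.492 and 0.444, so no difference was included. *Mcm10*, which helps to start the helicase, was at 218, 167 and 184. Both lay under the main set.

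Of the helicase partners, *Cdc45* was at 137 in WT against 253 in ins2 and 263 in del10, with ratios to WT of 1.84 (0.417 to 16.3) and 1.91 (0.456 to 16.5). *Gins4* was highest in WT, at 530, against 165 in ins2 and 329 in del10. Its ratio to WT was 0.312 in ins2 (0.102 to 0.958), an interval that excluded no difference, and 0.621 in del10 (0.261 to 1.64). The other GINS genes lay under the main set. *Gins1* was at 0, 94.9 and 38.7, *Gins2* at 49.5, 64.9 and 95.7, and *Gins3* at 58.3, 94.5 and 171. *Gins1* rested on 4.59 fragments in ins2 and 2.38 in del10, and the lower limits of its ratio to WT were 0.25 and 0.0652, which included no difference. GINS is a complex with 1 copy of each of its 4 proteins. Per kilobase *Gins4* was the highest of these 5 genes in every library, at 393 in WT against 123 in ins2 and 244 in del10. In WT *Gins1*, *Gins2* and *Gins3* rested on 0, 0.738 and 0.869 fragments, too few to place them beside *Gins4*.

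**Figure D3:**
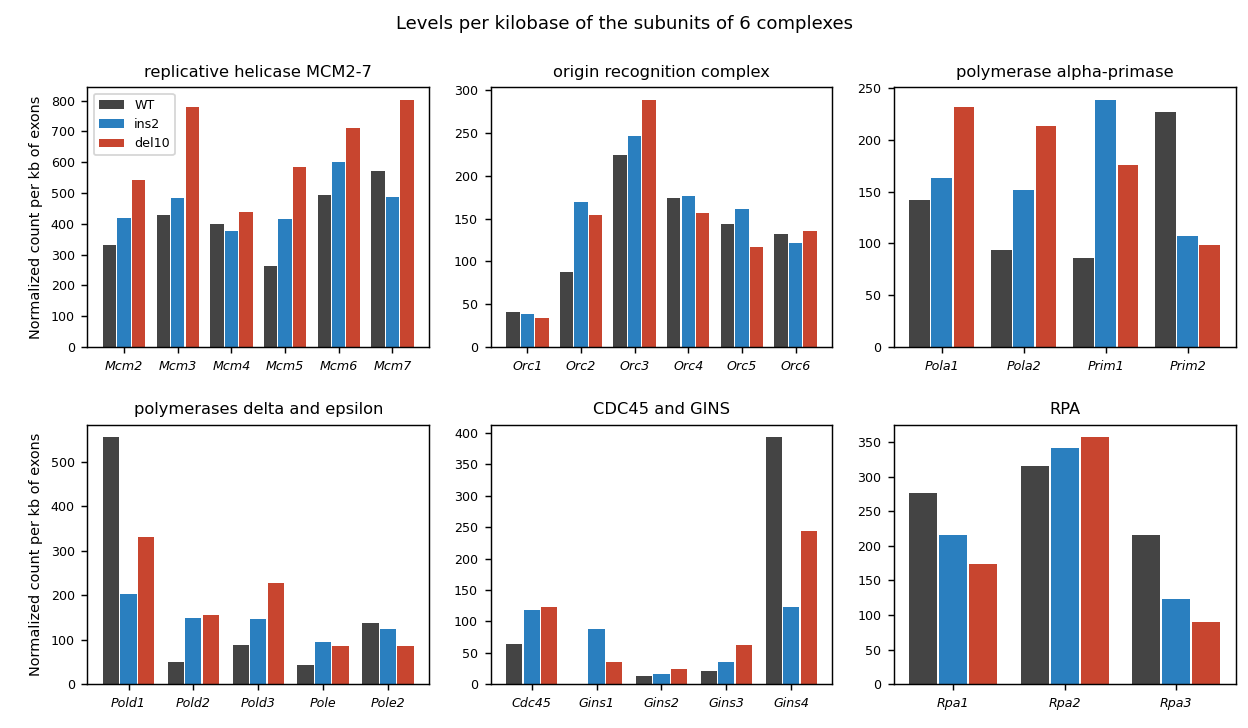
Normalized counts per kilobase of exons (vertical axes, from 0, scaled per panel) of the subunits of 6 complexes in WT, ins2 and del10. The 6 MCM bars differ by 1.60-fold to 2.19-fold within a library and are highest in del10, and *Gins4* and *Pold1* stand above their partners in WT, *Pold1* at 556.

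The polymerase subunits did not differ in 1 common direction. *Pola1*, the catalytic subunit of polymerase alpha, was at 759 in WT against 873 in ins2 and 1241 in del10, and its partner *Pola2* at 269, 435 and 614. The ratio of del10 to WT was 1.64 (0.871 to 3.38) for *Pola1* and 2.29 (0.822 to 8.81) for *Pola2*. The primase subunits, which lay the RNA primer, differed in opposite directions. *Prim1*, the catalytic subunit, was at 137, 379 and 280, with ratios to WT of 2.76 (0.671 to 23.6) in ins2 and 2.04 (0.49 to 17.5) in del10. *Prim2*, the regulatory subunit, was at 449, 211 and 196, with ratios of 0.471 (0.161 to 1.49) and 0.436 (0.156 to 1.34). Per kilobase *Prim2* exceeded *Prim1* in WT, on 6.69 and 2.05 fragments. *Prim1* exceeded *Prim2* in ins2, where *Prim1* was the highest and *Prim2* the lowest subunit of the complex.

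*Pold1*, the catalytic subunit of polymerase delta, was lower in both knock-in libraries. It was at 1920 in WT against 703 in ins2 and 1148 in del10. Its ratio to WT was 0.366 in ins2 (0.216 to 0.625) and 0.598 in del10 (0.382 to 0.958), and del10 was 1.63-fold (1.07 to 2.54) above ins2, so that all 3 intervals excluded no difference. *Pold2* and *Pold3*, accessory subunits of the same enzyme, had their lowest level in WT instead. *Pold2* was at 82.5, 245 and 255, and *Pold3* at 277, 462 and 707. The ratio of del10 to WT was 3.10 (0.548 to 72.7) for *Pold2*, which had 1.23 fragments in WT, and 2.55 (0.94 to 9.50) for *Pold3*. *Pole*, the catalytic subunit of polymerase epsilon on the leading strand, was at 314, 712 and 632, with ratios of 2.26 (0.861 to 7.76) and 2.01 (0.772 to 6.84). Its partner *Pole2* was at 234, 211 and 149. The sum of these 5 genes was close in WT (2828) and del10 (2891) and lower in ins2 (2333).

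*Pcna*, the sliding clamp that holds polymerases on DNA, was at 2388 in WT against 2116 in ins2 and 2906 in del10. Its ratio to WT was 0.886 (0.60 to 1.34) in ins2 and 1.22 (0.846 to 1.80) in del10, and between the knock-in libraries del10 was 1.37-fold higher (1.07 to 1.77). The clamp loader genes did not share an order. *Rfc1*, the large subunit, was at 699, 967 and 1157, and *Rfc2* at 844, 1039 and 745. *Rfc5* was at 237, 506 and 366, past 2-fold in ins2 with a ratio of 2.13 (0.698 to 9.38). Under the main set, *Rfc3* was at 95.7, 136 and 322 and *Rfc4* at 318, 173 and 150. *Rfc3* was 3.36-fold higher in del10 than in WT (0.673 to 55.1), and *Rfc4* was 2.12-fold lower, with a ratio of 0.471 (0.14 to 1.85).

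RPA, which coats single-stranded DNA, had its largest and smallest subunits highest in WT. *Rpa1* was at 1419 in WT against 1104 in ins2 and 894 in del10, with a ratio of del10 to WT of 0.63 (0.375 to 1.10). *Rpa3* was at 145, 82.4 and 60.7, and lay under the main set. *Rpa2* was nearly level at 572, 621 and 647. The sum of the 3 genes was 0.847 of WT in ins2 and 0.75 of WT in del10, while the sum of the 6 helicase genes was above WT in both. The Okazaki fragment enzymes *Fen1*, a flap nuclease, and *Lig1*, the nick ligase, stayed within 2-fold in all comparisons, *Fen1* at 671, 783 and 515 and *Lig1* at 662, 753 and 923.

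Of the 4 genes of deoxynucleotide supply, 3 were in the main set and 0 of these passed 2-fold. *Rrm1*, the large subunit of ribonucleotide reductase, was at 1116 in WT against 1046 in ins2 and 1587 in del10, and del10 exceeded ins2 1.52-fold (1.07 to 2.18). *Rrm2*, the S phase small subunit of the same enzyme, was highest in WT, at 998, 615 and 796. *Tyms*, which makes thymidylate, was highest in WT too, at 1646, 1117 and 1320. *Tk1*, the salvage thymidine kinase of S phase, was at 0 in WT against 50.2 in ins2 and 155 in del10. It rested on 2.43 and 9.48 fragments in the knock-in libraries, and the lower limits of its ratio to WT were 0.0864 and 0.511, which included no difference.

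*Slbp* encodes the protein that binds the stem-loop of replication-dependent histone mRNAs in S phase. It was at 432 in WT against 519 in ins2 and 1131 in del10, so that del10 stood apart from both other libraries. Its ratio was 2.62 for del10 to WT (1.17 to 7.08), 2.18 for del10 to ins2 (1.36 to 3.59) and 1.20 for ins2 to WT (0.492 to 3.44). *Ung*, the uracil glycosylase that clears uracil from new DNA, was at 31.6 in WT against 152 in ins2 and 265 in del10. These are 8.39-fold and 4.81-fold higher levels in del10 and ins2 than in WT, on 0.471 fragments in WT, and both intervals included no difference.

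**Figure D4:**
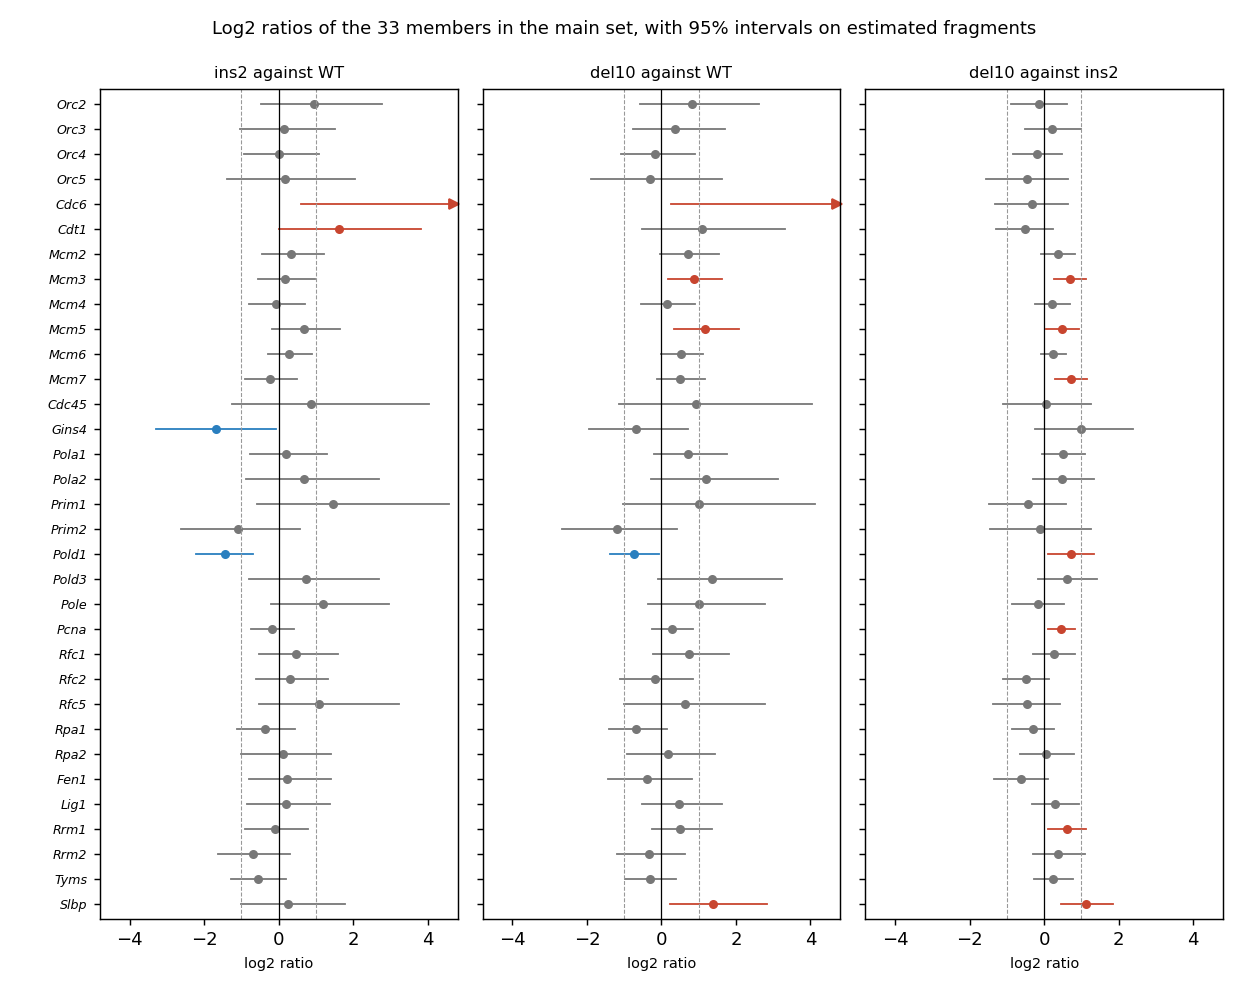
Log2 ratios (horizontal axes) of the 33 members in the main set in the 3 comparisons, with 95% intervals on estimated fragments. Red marks intervals above no difference and blue those below, dashed lines mark 2-fold, and the arrows of *Cdc6* show a ratio without upper bound. *Pold1* is blue in both comparisons with WT, and 7 members are red in del10 against ins2, among them *Slbp* beyond the dashed line.

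Over all 48 members, the main set limit set aside, 15 were over 2-fold higher in del10 than in WT (30.2% of the genes with any read) and 3 over 2-fold lower (15.5%). In ins2 against WT 10 were over 2-fold higher (28.7%) and 4 over 2-fold lower (15.7%). In del10 against ins2 4 were over 2-fold higher (15.4%), namely *Slbp*, *Gmnn*, *Rfc3* and *Tk1*, and 1 was lower (14.0%), namely *Gins1*. Listed at 0 in WT were 4 of the 48 (8.33%), against 22.0% of the genes with any read. In ins2 and del10 0 of the 48 were at 0, against 9.54% and 7.63%. At the level of *Cdc6* in the knock-in libraries, 200 to 500 normalized counts, 3.82% of genes were at 0 in WT. At that of *Mcm8*, 100 to 200, it was 134 of 706 genes (19.0%), and at 30 to 100, where *Gins1* lies, it was 332 of 830 (40.0%).

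Other genes of the pathway were read from lists written from general knowledge. Of 35 other replication factors, 24 were in the main set, of which 6 were over 2-fold higher and 2 lower in del10 against WT and 6 and 3 in ins2 against WT, with median log2 ratios of -0.01 and -0.03. Over the whole main set the shares were 15.3% higher and 10.2% lower in del10 and 15.7% and 10.7% in ins2, with medians of 0.04, and the counts of each list below are to be read beside them. The fork protection gene *Timeless* was at 162 in WT against 425 in ins2 and 765 in del10. *Cdc7*, the kinase that activates the loaded helicase, was at 67.1, 379 and 313, and *Hells*, a chromatin remodeler, at 121, 472 and 555. These 3 had the largest ratios of del10 to WT among the 24 genes of that list in the main set. Of 22 S phase kinases and E2F factors, 15 were in the main set, with 0 over 2-fold higher and 2 lower in del10 against WT and 1 and 2 in ins2. *E2f2* was at 2826, 1048 and 1269, *Tfdp2*, which encodes an E2F partner, at 1600, 1242 and 778, and *E2f4*, a repressor E2F, at 422, 865 and 776. *E2f2* and *Tfdp2* were thus highest in WT, and *E2f4* was lowest there. Of 10 genes of chromatin assembly at forks, 7 were in the main set, with a median log2 ratio of 0.31 in del10 and 0.07 in ins2. *Dnmt1*, the maintenance DNA methyltransferase, was at 1832, 1925 and 3676, and thus high in del10 alone, as *Slbp* was. *Ssrp1*, a histone chaperone subunit, was at 1556, 1896 and 2478, and *Nasp*, which encodes a histone carrier, at 572, 763 and 835.

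Of 25 genes of nucleotide synthesis, 20 were in the main set, with 1 over 2-fold higher and 1 lower in del10 against WT, 1 and 2 in ins2, and medians of 0.37 and -0.08. *Impdh2*, an enzyme of guanine nucleotide synthesis, was at 776 in WT against 1247 in ins2 and 1619 in del10. *Rrm2b*, the ribonucleotide reductase subunit used outside S phase, was at 911, 430 and 409, and *Samhd1*, which degrades deoxynucleotides, at 3494, 2176 and 1790. The last 2 were highest in WT. A list of 23 non-member genes known to be transcribed at G1/S shared genes with the lists above, *Hells* and *Nasp* among them. Of these 23, 16 were in the main set, with 3 over 2-fold higher and 1 lower in del10 against WT. In ins2 it was 3 and 1, and the medians were 0.52 and 0.17. *Usp1*, a deubiquitinase of DNA repair, was at 362, 1037 and 1167. Within the members, the 20 that belong to the same G1/S list had a median log2 ratio of 0.53 in del10 and 0.26 in ins2 over the 17 of them in the main set, and the other 28 had 0.48 and 0.17 over 16.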

How the data were processed

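RNA was sequenced from 3 LSK libraries, 1 per genotype. The authors mapped 75-base single-end reads to the mm10 genome and counted reads of RefSeq genes. Bowtie2 2.2.3, TopHat2 2.1.1, Trimmomatic 0.32 and bcl2fastq 2.20 are named in the submitters' processing notes. The authors deposited an estimated count per gene, whole for 25.9% to 35.0% of genes with reads, and a log2 value scaled by the trimmed mean of M-values. Removal of duplicate reads and the strand setting of the counting are not given in the sources used here, so reads of overlapping genes cannot be told apart. The factors 1.10 (WT), 0.984 (ins2) and 1.02 (del10) times the deposited counts gave the deposited log2 values to within 1.40e-06.

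Normalized counts used these factors, and log2 ratios a pseudocount of 1. Of the 3 comparisons none has a replicate test. Ratios have exact binomial (Clopper-Pearson) 95% intervals on reads divided by the commonest low read count, the peak between 5 and 150 reads of a mean that moves over 5 counts to either side. Among 12 widths, 11 (WT), 10 (ins2) and 7 (del10) came within 25% of the values used. Exon lengths came from GENCODE vM21 (GRCm38), and promoters from RefSeq (GRCm38.p6), the first entry being used for 6 members with several. Values were given for MCM2-7, ORC, *Cdc6*, *Cdt1*, *Gmnn*, *Pcna*, members past 2-fold, at 0 or nearest to 2-fold, and the 5 highest by mean, and of each further list for the 3 main-set genes with the largest ratio of del10 to WT in either direction. The remaining members were given too. *Kit*, *Ly6a*, *Itga2b*, *Vwf*, *Il7r*, *Klf1*, *Hbb-b1*, *Mpo* and *Elane* were added after their values were seen. The members and lists were chosen with earlier results of these data known. Other scalings, pseudocounts, filters, thresholds and counting units were tried. Steps were tested on simulated data. Python 3.11.15, NumPy 2.4.6, pandas 2.3.3, SciPy 1.17.1, matplotlib 3.10.9, R 4.3.3 and edgeR 4.0.16 were used. Values of some single genes in the marker and pathway lists are not reported here, although the lists' counts and sums include them.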

Additional observations from a re-analysis of the deposited data

Results flagged for a closer look

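For 8 members of the main set the ins2 and del10 libraries lay on opposite sides of WT, with 1 library each, and these differences were not tested. The log2 ratio of del10 to ins2 was 0.72 for *Mcm7*, 0.60 for *Rrm1*, 0.46 for *Pcna* and 0.22 for *Mcm4*, which were below WT in ins2 and above WT in del10. It was -0.18 for *Orc4*, -0.46 for *Orc5*, -0.48 for *Rfc2* and -0.61 for *Fen1*, which were above WT in ins2 and below WT in del10. The fragment intervals between the knock-in libraries excluded no difference for *Mcm7*, *Rrm1* and *Pcna* and included it for the other 5.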

How the results depend on the processing

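Other scalings (library totals, totals without *Rn45s*, edgeR's TMM factors, median of ratios), pseudocounts of 0.5 and 10 and zeros set to 3 reads kept the direction of the median ratios and kept the counts within 1.5 times their values. Under median of ratios *Orc4* no longer lay on opposite sides of WT, and under library totals the order of *Cdc45* and of *Rpa2* in the 3 libraries was another one. With a mean of at least 1000, which left 11 members, the median log2 ratio of ins2 to WT was -0.09 in place of 0.20 and that of del10 to ins2 0.46 in place of 0.24. At that limit, members over 2-fold higher numbered 1 in del10 against WT and 0 in the other comparisons, and lower ones 0 in del10 and 1 in ins2 against WT. Over all genes at that limit the higher shares were 8.82%, 8.86% and 0.818% in del10 against WT, ins2 against WT and del10 against ins2, and the lower shares 6.80% and 7.83% against WT. Without a filter, 15, 10 and 4 members were higher in del10 against WT, ins2 against WT and del10 against ins2, and 3 and 1 were lower in del10 against WT and against ins2. At 1.5-fold the higher counts were 15, 10 and 7 and the lower counts 4 in del10 against WT and 1 in del10 against ins2. Requiring the fragment interval beside 2-fold left 3 higher and 0 lower in del10 against WT and 2 higher in ins2 against WT. The shares of all genes at 1.5-fold, and at 2-fold with the fragment interval, were not computed. These counts therefore have no background and are descriptions only. No paired analysis was possible because each genotype had 1 library. Depth limits members low in WT most, where 1 fragment was taken as 61 reads.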
